A study of Gallus gallus with 40 samples.

Results

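Spotted cDNA arrays set liver RNA of a high growth chicken line (HG) against that of a low growth line (LG) at 6 ages, and the question here is which liver transcripts differ between the lines to another degree late than early. Early means the arrays at 1 and 3 weeks of age, and late means those at 5, 7, 9 and 11 weeks. Of the 40 arrays in the series, 38 were used: 12 from birds of 1 week, 10 from birds of 3 weeks and 4 from each late age. A pair of arrays at 3 weeks, replicates 3 and 4, was left out because their ratios were nearly identical (r = 0.9999 over 9493 spots) although the labels give them opposite dyes.

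HG and LG are broiler lines, kept by a standard broiler protocol, that were selected in opposite directions for body weight at 8 and 32 weeks of age. No drug or other treatment is given in the labels. Each array carried liver RNA of 1 HG and 1 LG bird of the same age, one with the dye 555 and the other with 647, and HG carried each dye on equally many arrays at every age. The birds' sex is not stated. Replicates 5 to 12, which exist at 1 and 3 weeks, came from a second hybridisation round that took RNA of 4 earlier birds per line again and added 4 new birds. It is not stated which of these arrays repeat a bird. Arrays were therefore the unit of the tests, and the early spread is partly technical. All late arrays belong to the first round.

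The liver makes most plasma proteins, burns and stores fat, turns nitrogen into uric acid and, with cytosolic sulfotransferases, reductases and transferases, clears hormones and foreign compounds. During the growth of young birds it is a target of growth hormone, thyroid hormone and insulin. A difference between lines at a given age is a ratio of 2 livers, so a change of that difference with age can come from either line. In whole liver, a different share of a cell type and a different amount of RNA per cell cannot be told apart.

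Each value below is a log2 ratio of the lines, turned by the dye that HG carried. Its sign is named after the leading gene on each side: positive values lie on the side of VNN2 and negative values on the side of SULT. The design text names 647 as red and 555 as green, and a ratio of red over green, the likely one, would put the VNN2 side higher in HG and the SULT side higher in LG. The opposite ratio would exchange the lines. Which ratio was deposited is not stated, nor whether the authors had already turned it. Correlated with the mean of the other late arrays over probes, single late arrays lay between r = -0.365 and r = 0.476. The lowest was replicate 4 at 5 weeks, and replicate 1 at 7 weeks (r = -0.074) and replicate 2 at 9 weeks (r = -0.00216) also lay below 0. A negative r does not by itself show a wrong dye label, which was not tested. Correlated in the same way with the other early arrays, single early arrays lay between r = -0.265 and r = 0.275. The lowest early ones were replicates 1 and 2 at 3 weeks (r = -0.265 and r = -0.177). Replicates 7 and 9 at 3 weeks (r = -0.12 and r = -0.0428) and replicate 1 at 1 week (r = -0.0336) also lay below 0. Few probes passed early at an adjusted p under 0.05, in limma tests that share 1 spread over all ages. The sign of r there was therefore not read as showing how an array is oriented. What such arrays do to the early differences near 0 was not tested.

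The line difference changed from early to late ages past the threshold (adjusted p under 0.05) in 74 probes, and it was the larger one late in 73 of them. SULT, a cytosolic sulfotransferase, went from -0.15 early to -1.80 late, a change of -1.64 (log2, SE 0.22, 3.13-fold, adjusted p = 7.82e-05, limma). AKR1D1, the steroid reductase of bile acid synthesis, changed by -0.64 (SE 0.11, adjusted p = 0.00119), and WASF2, a regulator of the actin cytoskeleton, by -0.81 (SE 0.12, adjusted p = 0.000459). On the other side VNN2, of the vanin family that breaks down a precursor of coenzyme A, changed by 0.81 (SE 0.17, 1.76-fold, adjusted p = 0.00718). MED27, a subunit of the Mediator complex of transcription, changed by 0.57 (SE 0.11, adjusted p = 0.00406).

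The 74 probes were 1.15% of the 6432 tested. Of them 26 lay on the VNN2 side (0.404%) and 48 on the SULT side (0.746%). They stand for 42 named genes, 15 on the VNN2 side and 27 on the SULT side, and for 31 clones without a gene name. The size of the change ran from 0.174 to 1.64 with a median of 0.404, and 5 probes reached 1. Over all probes the median change was 0.0328 and the median SE 0.0803. At the edge of the threshold the last probe inside had an adjusted p of 0.0499 and the first outside 0.0541, and 552 probes (8.58%) had an unadjusted p under 0.05.

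The early line difference lay within 0.2 of 0 in 68 of the 74 probes and passed its own threshold in 2, while the late one passed in 73. Over all probes the early difference passed in 2 (0.0311%) and the late one in 284 (4.42%). Taken age by age, 1 probe passed in the youngest birds (0.0155%) and 0 in those of 3 weeks (0%), while the late ages in order had 50 (0.777%), 187 (2.91%), 54 (0.84%) and 25 (0.389%). The sign of the early and the late difference was opposite in 14 of the 74. It had the same sign at all 4 late ages in 62 of them, 22 on the VNN2 side and 40 on the SULT side. The 74 were chosen by their late minus early change on these same arrays. Small early values, larger late ones and like late signs among them therefore follow in part from that choice.

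**Figure D1:**
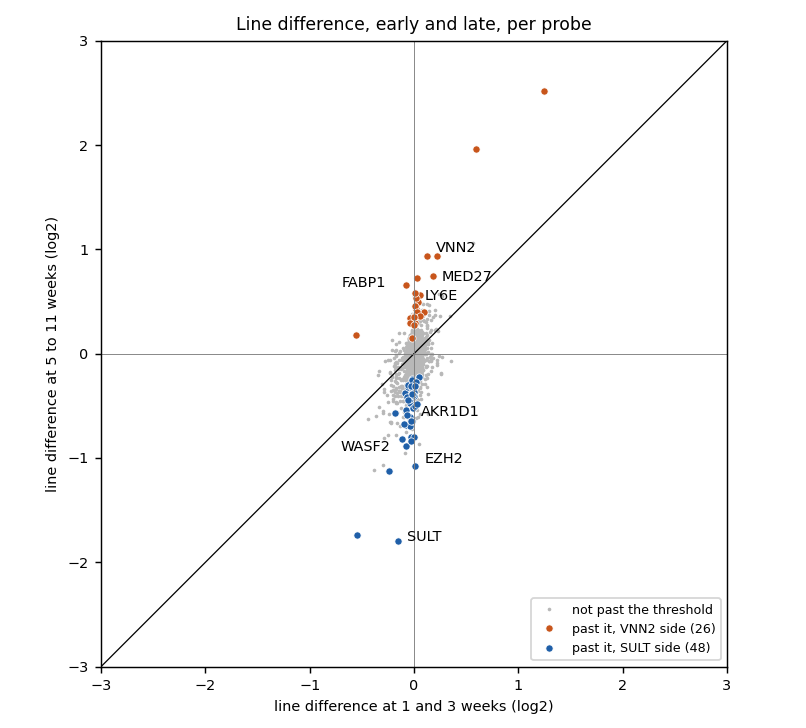
Each point is 1 of 6432 probes, with its line difference at 1 and 3 weeks on the x axis and at 5 to 11 weeks on the y axis (both log2, mean of the fitted effects of those ages). Coloured points are the 26 probes on the VNN2 side and the 48 on the SULT side that passed the threshold, and the line marks equal values. Most coloured points stand above or below 0 on the y axis with x near 0, and SULT lies at -0.15 and -1.80.

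Arrays of different ages and rounds were not equally spread, which bears on the count of 74 and on the counts by age. The residual SD within an age was 0.146 and 0.145 at the early ages, 0.356 and 0.382 at 5 and 7 weeks, and 0.219 and 0.225 at 9 and 11 weeks. The early arrays also differed by round. The typical median absolute deviation of an array at 1 and 3 weeks was 0.257 and 0.261 in the first round, and 0.152 and 0.138 in the second. It was 0.444, 0.422, 0.23 and 0.256 from 5 to 11 weeks. Age and round are thus mixed in the narrow early spread. When all arrays were scaled to the same median absolute deviation 12 probes passed, and when each age had its own weight 11 did. The probes that passed in both ways were 8 of the 74, 1 on the VNN2 side and 7 on the SULT side. The 5 named ones are SULT, AKR1D1, WASF2, CZH18ORF25 and NME4, a mitochondrial nucleoside diphosphate kinase. They were picked out after their values were seen. Without 7 weeks SULT, AKR1D1 and WASF2 still passed, but CZH18ORF25 and NME4 did not (limma, adjusted p = 0.141 and 0.0995). Without 3 weeks AKR1D1, WASF2, CZH18ORF25 and NME4 no longer passed. The change of WASF2 rests on 1 of its 3 clones.

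Within the first hybridisation round alone, with 6 early and 16 late arrays, only 1 probe passed. It was an unnamed clone at 1.01 (adjusted p = 0.0367) and none of the 74, so the comparison did not hold at this threshold within that round. The median SE was 0.158 there. SULT had -1.63, AKR1D1 -0.67, WASF2 -0.77, VNN2 0.76 and MED27 0.39 in that fit, in which the late arrays are the same as in the full comparison. If the authors had already turned the ratios, 1281 probes would pass, with 1 of the 74 among them (limma), and the 31 named genes followed through the settings would all no longer pass. SULT would then have -0.38 (adjusted p = 0.507), VNN2 0.058 (adjusted p = 0.909) and WASF2 -0.018 (adjusted p = 0.965). Without 7 weeks 59 probes passed, 41 of them among the 74, and 15 of these 31 genes no longer did. With the early arrays of the second round alone 29 probes passed. With the replicate number as a block 0 passed (limma), 331 had an unadjusted p under 0.05, and 1 gene of the lists passed. The numbers of the second round have no late arrays in that fit.

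The early values of the 2 rounds can be set side by side. SULT averaged -0.27 ± 0.44 (SD, n = 6) on the early arrays of the first round, -0.125 ± 0.219 (SD, n = 15) on those of the second and -1.80 ± 1.17 (SD, n = 16) late. For VNN2 these means were 0.092 ± 0.625 (SD, n = 5), 0.139 ± 0.34 (SD, n = 15) and 0.94 ± 0.95 (SD, n = 16). The early means of both rounds lay nearer to 0 than the late mean for each of these genes. The genes were chosen by their late minus early change on these same arrays, so that order follows in part from the choice. MED27 was the least clear, with 0.354 ± 0.403 (SD, n = 5) in the first round, 0.126 ± 0.244 (SD, n = 16) in the second and 0.75 ± 0.54 (SD, n = 16) late.

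**Figure D2:**
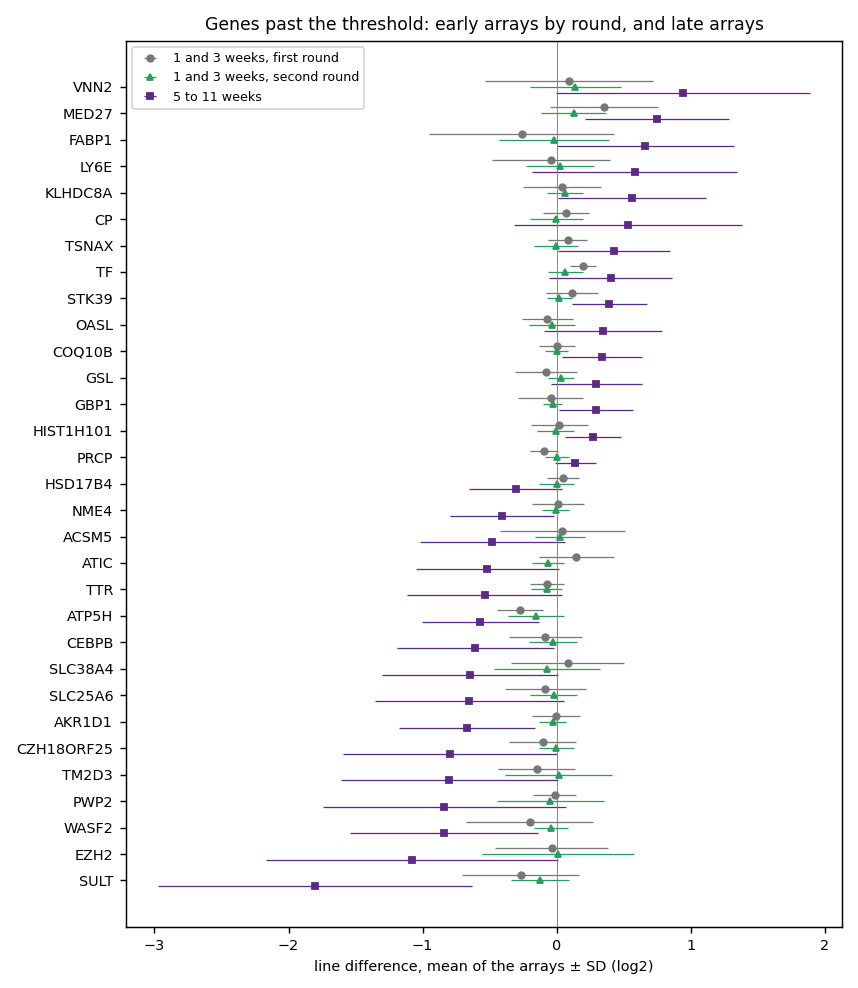
For each gene named for passing the threshold, the points give the mean line difference over arrays (x axis, log2, bars are SD) for the early arrays of the first round, the early arrays of the second round and the late arrays. The early means lie between -0.27 and 0.35, and those of the late arrays from -1.80 for SULT to 0.94 for VNN2.

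SULT opens the enzymes of clearance and bile acids on the SULT side. Its 21 early arrays ran from -0.97 through a median of -0.13 to 0.39. At 5 weeks the 4 arrays had -0.36, -1.26, -2.01 and 0.77, and at 7 weeks -1.78, -2.48, -3.09 and -1.93. At 9 weeks they had -3.07, -0.77, -2.46 and -3.26, and at 11 weeks -1.25, -1.59, -0.77 and -3.47. The difference was thus wide from 7 weeks on, 12 of 16 late arrays lay below the whole early range, and the single late array above 0 was replicate 4 at 5 weeks. Here and below, counts of late arrays beyond the early range follow in part from choosing genes by this change on the same arrays. The early arrays were also less widely spread than those at 5 and 7 weeks. The fitted differences from 5 to 11 weeks were -0.71, -2.32, -2.39 and -1.77.

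AKR1D1 reduces the double bond of steroid rings in bile acid synthesis and in the breakdown of steroid hormones. Its early arrays ran from -0.24 to 0.25, and 14 of 16 late arrays lay beyond that range, a count that is in part built in. The fitted differences from 5 to 11 weeks were -0.79, -0.38, -0.86 and -0.65, smallest at 7 weeks, where 22 of the 48 probes on this side had their widest difference. HSD17B4, the peroxisomal enzyme that shortens fatty acids and the bile acid side chain, changed by -0.32 (SE 0.083, adjusted p = 0.0445). Of 11 bile acid genes these 2 passed on the SULT side and 0 on the other, beside 0.629% of all 3181 genes on the SULT side. The list median was -0.10 against 0.0324 for all genes.

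Among 33 genes of xenobiotic metabolism SULT alone passed, beside 1.07% of all genes. The list median was -0.080, with 11 of 33 positive against 66.2% of all genes. GSTA3, a glutathione transferase, had -0.65 (adjusted p = 0.0698) and SULT1C3, another sulfotransferase, -0.36 (adjusted p = 0.608). SULT1C3 stood at -0.99 at 7 weeks and at 0.05 at 9 weeks, the age at which SULT had its widest difference.

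A group on the SULT side had its widest difference at 7 weeks, among them EZH2, a histone methyltransferase of the Polycomb repressors. Its early arrays ran from -1.78 to 0.75 with a median of 0.14. The 4 arrays at 5 weeks had -1.52, -0.41, -2.07 and 0.77, those at 7 weeks -1.34, -3.27, -2.29 and -1.97, those at 9 weeks -1.62, 0.098, -0.71 and -1.01, and those at 11 weeks -0.15, -1.67, 0.47 and -0.58. Only 4 of 16 late arrays lay below the early range, which 1 second round array at 1 week widens, and all 4 arrays at 7 weeks were below -1.3. The change was -1.09 (SE 0.22, 2.13-fold, adjusted p = 0.00656), and a second EZH2 probe had -0.042 (adjusted p = 0.898). Without 7 weeks the change was -0.71 (adjusted p = 0.202).

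PWP2, which acts in the assembly of ribosomes, changed by -0.81 (SE 0.18, adjusted p = 0.0168), with -2.71 to -0.48 at 7 weeks and -1.76 to 0.58 at 5 weeks. TM2D3 changed by -0.80 (SE 0.18, adjusted p = 0.0150), with -2.17 to -0.98 at 7 weeks and -1.04 to 0.70 at 5 weeks. CZH18ORF25 changed by -0.77 (SE 0.15, adjusted p = 0.00575), with -2.14 to -1.24 at 7 weeks and -1.42 to 0.81 at 5 weeks. In all 3 genes the highest array at 5 weeks was replicate 4 and the arrays at 7 weeks were all negative. Older birds were mixed: PWP2 had -1.35 to 0.017 at 9 weeks and -1.45 to 0.19 at 11 weeks. TM2D3 had -1.51 to -0.004 and -1.47 to 0.61 at these ages, and CZH18ORF25 -1.64 to 0.62 and -0.96 to -0.15. Without 7 weeks PWP2 had -0.53 (adjusted p = 0.236), TM2D3 -0.54 (adjusted p = 0.255) and CZH18ORF25 -0.54 (adjusted p = 0.141). CZH18ORF25 was the tightest early, between -0.50 and 0.16, and 10 of its 16 late arrays lay below that.

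WASF2 was widest at 9 weeks. The 4 arrays at 5 weeks had -0.62, -0.69, -1.22 and 0.19, those at 7 weeks -0.22, -1.87, -1.52 and -1.14, and those at 11 weeks -0.34, -0.53, -0.15 and 0.14. At 9 weeks 3 arrays had a value, -1.52, -1.18 and -1.95. The 4 arrays at 11 weeks lay inside the early range of -0.83 to 0.34, and the fitted value there was -0.22. The gene has 2 further probes, at -0.047 and 0.025, so the change rests on 1 of its 3 clones.

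Several genes on the SULT side act in mitochondria, grouped here after their values were seen, while COQ10B, another such gene, passed on the VNN2 side. SLC25A6, an exchanger of ADP and ATP, changed by -0.65 (SE 0.14, adjusted p = 0.0116) with a second probe at -0.24 (adjusted p = 0.726), NME4 by -0.41 (SE 0.085, adjusted p = 0.00737) and ATP5H, a subunit of the ATP synthase, by -0.39 (SE 0.093, adjusted p = 0.0250). ACSM5, which activates fatty acids of medium length, changed by -0.51 (SE 0.13, adjusted p = 0.0487), the calcium uniporter MCU by -0.25 (adjusted p = 0.0278) and the lipid carrier PRELID1 by -0.35 (adjusted p = 0.0216). MCU and ACSM5 were widest at 11 weeks, at -0.53 and -0.74, whereas ATP5H, NME4 and SLC25A6 were widest at 7 weeks, at -0.93, -0.68 and -1.26. Of 20 oxidative phosphorylation genes only ATP5H passed, beside 1.07% of all genes, the median was -0.017, and ATP5H already stood at -0.18 early.

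ATIC, the enzyme of the last steps of purine synthesis, from which birds make uric acid, changed by -0.51 (SE 0.11, adjusted p = 0.0150), and 12 of its 16 late arrays lay below its early range of -0.32 to 0.60. It stood at -0.80 at 5 weeks and -0.74 at 11 weeks, but at -0.24 and -0.29 in between. SLC38A4, a transporter of neutral amino acids, changed by -0.62 (SE 0.16, adjusted p = 0.0499), was widest at 5 weeks (-0.98) and has 2 further probes at -0.20 and 0.0039. ATIC's other probe had -0.42 (adjusted p = 0.369). In amino acid and urate metabolism 1 of 27 genes, ATIC, passed, beside 1.07% of all genes. GATM, an enzyme of creatine synthesis, had -0.77 (adjusted p = 0.142) with -2.69 at 7 weeks.

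TTR, a plasma carrier of thyroid hormone and of retinol binding protein, changed by -0.46 (SE 0.10, adjusted p = 0.0150), and its second probe had -0.52 (adjusted p = 0.216). The lead probe stood at -0.63 at 5 weeks and -1.06 at 7 weeks, but at -0.10 at 9 weeks. CEBPB, a transcription factor of the acute phase and of glucose production, changed by -0.57 (SE 0.12, adjusted p = 0.00718) with -1.13 at 7 weeks, while its other probe had 0.15 (adjusted p = 0.597). TTR was the only gene of 12 in the growth hormone, IGF and thyroid list to pass, beside 1.07% of all genes. The other 11 were positive, beside 66.2% of all genes, with values up to 0.14. GHR, the growth hormone receptor, had 0.063, DIO1, a deiodinase of thyroid hormone, 0.043 and IGFBP2 0.054. IGF1, IGFBP1 and DIO3 were not analysed here.

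The remaining named genes on the SULT side changed by -0.37 to -0.22. They were MBD2, a reader of DNA methylation (-0.27, adjusted p = 0.00114), MAU2, which loads cohesin (-0.22, adjusted p = 0.00575), DIAPH2, which builds actin filaments (-0.26, adjusted p = 0.00718), LDAH, a hydrolase of lipid droplets (-0.23, adjusted p = 0.0421), AOC3, an amine oxidase (-0.28, adjusted p = 0.0397), ERMP1 (-0.29, adjusted p = 0.00718), TMEM214 (-0.29, adjusted p = 0.0430), LOC396477 (-0.34, adjusted p = 0.0327) and ABHD4, a lipase (-0.37, adjusted p = 0.00575). Further probes of these genes did not pass. They had 0.014 for MBD2, -0.058 for MAU2, 0.062 and 0.029 for TMEM214, -0.14 for LDAH and -0.41 for AOC3. MBD2 and DIAPH2 were widest at 11 weeks, at -0.44 and -0.38, and ABHD4 and ERMP1 at 9 weeks, at -0.71 and -0.70. LDAH and DIAPH2 showed nearly level differences at the late ages, from -0.29 to -0.21 and from -0.38 to -0.25.

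**Figure D3:**
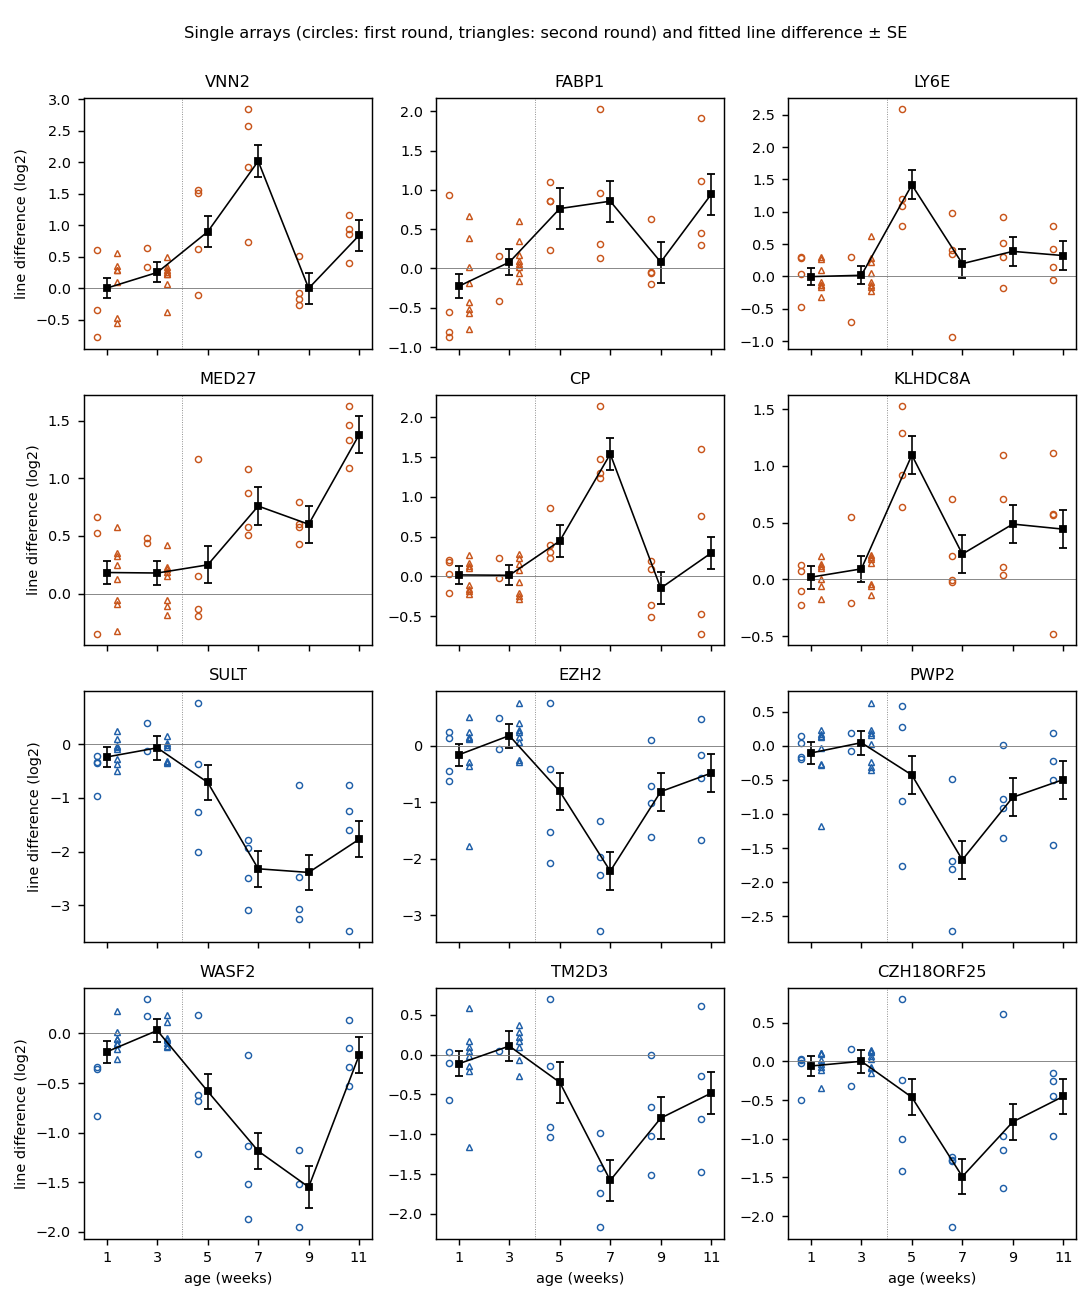
Line difference (y axis, log2) by age in weeks (x axis) for the 6 genes with the largest change on each side, 1 panel a gene. Circles are arrays of the first round, triangles arrays of the second, and black squares the fitted difference with its SE. VNN2, CP, EZH2, PWP2, TM2D3 and CZH18ORF25 are farthest from 0 at 7 weeks, LY6E and KLHDC8A at 5 weeks, WASF2 and SULT at 9 weeks, and MED27 and FABP1 at 11 weeks.

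VNN2 had the largest change among named genes on its side. It ran from -0.78 to 0.64 on 20 early arrays with a median of 0.27. Its arrays had 1.52, 1.56, 0.62 and -0.11 at 5 weeks, 1.92, 0.73, 2.58 and 2.84 at 7 weeks, -0.077, -0.16, 0.51 and -0.27 at 9 weeks, and 0.85, 0.40, 0.94 and 1.17 at 11 weeks. It was therefore high at 7 weeks on all 4 arrays and inside the early range on all 4 at 9 weeks. The fitted value at 7 weeks was 2.02, and it exceeded the mean of the other late ages by 1.44. Without 7 weeks the change of VNN2 was 0.45 (adjusted p = 0.241).

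FABP1, the fatty acid binding protein of liver, changed by 0.73 (SE 0.17, 1.66-fold, adjusted p = 0.0208). Its early arrays ran from -0.88 to 0.94, its late arrays had 0.23 to 1.11 at 5 weeks, 0.13 to 2.02 at 7 weeks, -0.20 to 0.63 at 9 weeks and 0.30 to 1.92 at 11 weeks. Only 5 of 16 late arrays exceeded the early range, although 13 were positive. LBFABP, the basic fatty acid binding protein, moved the other way without passing, at -0.60 (SE 0.16, adjusted p = 0.0561) with -2.02 at 7 weeks. Of 9 genes for fatty acid binding and coenzyme A these 2, VNN2 and FABP1, passed on the VNN2 side, beside 0.44% of all genes, and 0 on the other.

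Of 16 genes of fat synthesis 0 passed (limma), and 3 had an unadjusted p under 0.05. THRSP, which responds to thyroid hormone and promotes lipogenesis, had -0.86 (SE 0.27, adjusted p = 0.172), with -2.23 at 7 weeks and 0.0097 at 5 weeks. FASN, the fatty acid synthase, had -0.73 (SE 0.25, adjusted p = 0.243) on 1 probe and -0.0016 on the other, and ACLY, which supplies its acetyl-CoA, had -0.30 (adjusted p = 0.702). FASN and ACLY were already at -0.38 and -0.17 early. SCD was not analysed here.

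Plasma proteins of the acute phase were on both sides. CP, ceruloplasmin, the copper protein of plasma, changed by 0.52 (SE 0.13, 1.43-fold, adjusted p = 0.0397). Its arrays had 0.23, 0.40, 0.31 and 0.86 at 5 weeks, 1.47, 2.15, 1.31 and 1.24 at 7 weeks, -0.37, 0.092, -0.51 and 0.20 at 9 weeks, and -0.47, 0.77, -0.72 and 1.61 at 11 weeks, against an early range of -0.28 to 0.28. All arrays at 7 weeks lay above that range, those at 9 weeks on both sides of 0, and those at 11 weeks were split. Without 7 weeks the change of CP was 0.18 (adjusted p = 0.680).

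TF, transferrin, the iron carrier, changed by 0.31 (SE 0.070, adjusted p = 0.0170), with 0.93 at 7 weeks, 0.47 at 11 weeks and -0.12 at 9 weeks, and the change without 7 weeks was 0.13 (adjusted p = 0.528). In the acute phase list CP and TF passed on the VNN2 side and TTR on the other, out of 15 genes, beside 1.07% of all genes, with a median of 0.023. ORM1, an acute phase glycoprotein, had 0.50 (SE 0.20, adjusted p = 0.403), having stood at 0.56 early. The fibrinogen chains FGB and FGA had 0.19 (adjusted p = 0.823) and 0.15 (adjusted p = 0.819, limma). They stood at 1.35 and 1.25 at 7 weeks and at -0.15 and -0.21 at 9 weeks. Further FGA probes had 0.16 and 0.051, with 1.18 and 0.33 at 7 weeks. Of 11 hepatocyte markers FABP1 and TF passed on the VNN2 side and TTR on the SULT side, beside 1.07% of all genes.

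The comparison of 7 weeks with the mean of 5, 9 and 11 weeks was chosen with the large differences at 7 weeks known, so its values are a description. In 9 of the 74 probes, among them VNN2, CP, TF and PRELID1, it lay past the threshold, beside 44 of all probes (0.684%), and these 44 became 1 with scaled arrays and 0 with weights per age (limma, 81 at an unadjusted p under 0.05). Among looked-up genes that did not pass late against early, GATM differed at 7 weeks by -2.17, LBFABP by -1.65, ORM1 by 1.51, FGA by 1.31, FGB by 1.40 and HSPA5 by 0.73. The second HSPA5 probe differed by 2.20. Further FGA probes differed by 1.21 and 0.38 without passing (limma, adjusted p = 0.076 and 0.394). The F test that the 6 differences are equal passed in 54 of the 74 and in 99 of all probes (1.54%), and since it holds the contrast that chose the 74, nothing is read from that share.

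Probes of 3 genes known to be induced by interferon, LY6E, OASL and GBP1, passed and were widest at 5 weeks. LY6E, a cell surface protein, had 2.58, 1.10, 0.78 and 1.21 on the 4 arrays at 5 weeks, 0.34, -0.94, 0.98 and 0.41 at 7 weeks, 0.91, 0.30, 0.52 and -0.18 at 9 weeks and 0.42, -0.057, 0.79 and 0.14 at 11 weeks. Early it ran from -0.70 to 0.63, so all 4 arrays at 5 weeks lay above the early range, beside 3 of the 12 later ones. The change was 0.57 (SE 0.15, 1.49-fold, adjusted p = 0.0416), and a second LY6E probe passed too, at 0.45 (SE 0.10, adjusted p = 0.0202). It was the only gene with 2 probes past the threshold. Without 5 weeks LY6E had 0.30, OASL 0.23 and GBP1 0.26, and none of them passed (limma, adjusted p = 0.368, 0.080 and 0.0707).

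OASL, of the oligoadenylate synthetase family that senses foreign RNA, changed by 0.39 (SE 0.086, adjusted p = 0.0150) with 0.83 at 5 weeks, and its other probes had 0.14 and 0.10, both widest at 9 weeks. GBP1, a guanylate binding protein of antimicrobial defence, changed by 0.33 (SE 0.076, adjusted p = 0.0202) with 0.48 at 5 weeks. At that age its replicate 2 had 0.94 and the other arrays 0.257 to 0.358. Of 16 genes of antigen presentation and interferon LY6E and GBP1 passed as means of their probes, both on the VNN2 side, beside 0.44% of all genes. OASL had an adjusted p of 0.0770. In the list 12 of 16 were positive, beside 66.2% of all genes, and its median change was 0.065, with median line differences of 0.16 at 5 weeks and 0.15 at 7 weeks. The lowest member was IFIH1, a sensor of viral RNA, at -0.44 (adjusted p = 0.599). The 6 measured leukocyte markers lay between -0.065 and 0.20, 0 passed (limma) and 1 had an unadjusted p under 0.05. Their part in the interferon genes was not tested.

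KLHDC8A and GSL shared the course with 5 weeks widest. KLHDC8A had 1.30, 1.53, 0.64 and 0.92 at 5 weeks, -0.021 to 0.71 at 7 weeks, 0.035 to 1.09 at 9 weeks and -0.48 to 1.11 at 11 weeks, and changed by 0.51 (SE 0.11, adjusted p = 0.0150). All 4 arrays at 5 weeks were above its early range of -0.23 to 0.55. GSL changed by 0.28 (SE 0.058, adjusted p = 0.00718) and stood at 0.77 at 5 weeks but at 0.045 at 7 weeks. Without 5 weeks KLHDC8A had 0.33 and GSL 0.12, and neither passed (limma, adjusted p = 0.196 and 0.353). HIST1H101, a linker histone, changed by 0.27 (SE 0.063, adjusted p = 0.0216) and was positive on 16 of 16 late arrays.

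MED27 was widest at 11 weeks. Its arrays had -0.19, 0.16, -0.13 and 1.16 at 5 weeks, 1.08, 0.51, 0.58 and 0.87 at 7 weeks, 0.57, 0.60, 0.80 and 0.43 at 9 weeks and 1.63, 1.09, 1.46 and 1.33 at 11 weeks. All 12 arrays from 7 weeks on were above 0.4 and all 4 at 11 weeks above the early range of -0.35 to 0.67. The early difference of 0.18 did not pass its threshold.

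STK39, a kinase that controls ion transport, changed by 0.35 (SE 0.068, adjusted p = 0.00514) with its widest value, 0.58, at 9 weeks, and 15 of 16 late arrays were positive. COQ10B, a mitochondrial protein that binds coenzyme Q, changed by 0.34 (SE 0.069, adjusted p = 0.00618) and stood at 0.17, 0.35, 0.36 and 0.48 from 5 to 11 weeks. TSNAX, a partner of the nucleic acid binding protein translin, changed by 0.41 (SE 0.094, adjusted p = 0.0170), with 0.60 at 7 weeks and 0.58 at 9 weeks. PRCP, a lysosomal peptidase, had the smallest change on this side, 0.17 (SE 0.044, adjusted p = 0.0416), with further probes at 0.089 and 0.015.

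The largest changes on the VNN2 side belonged to clones without a gene name, singled out after their values were seen. One stood at 0.59 early and 1.97 late (change 1.37, SE 0.21, adjusted p = 0.000555), and the other at 1.25 early and 2.52 late (change 1.27, SE 0.29, adjusted p = 0.0209). The early difference of the second passed its own threshold (adjusted p = 0.00308) and that of the first did not (adjusted p = 0.207). With arrays scaled to the same deviation the changes were 0.84 (adjusted p = 0.0787) and 0.13 (adjusted p = 0.959). On the SULT side the largest unnamed changes were -1.19 (adjusted p = 0.0150), from -0.55 to -1.74, and -0.89 (adjusted p = 0.00126), from -0.24 to -1.13.

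The widest late difference was at 5 weeks for 12 probes (10 on the VNN2 side and 2 on the SULT side), 7 weeks for 27 (5 and 22), 9 weeks for 19 (3 and 16) and 11 weeks for 16 (8 and 8). Opposite signs to the change occurred at 9 weeks in 4 probes of the VNN2 side and in 0 of the SULT side. Among the 4 were VNN2 (-0.00049, SE 0.25), CP (-0.15, SE 0.20) and TF (-0.12, SE 0.10). None of these 3 differences passed at that age (limma), and that of VNN2 was near 0. At 7 weeks 0 of the 74 had the opposite sign, an age whose wide values weigh in the choice of the 74.

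Single late arrays did not carry the changes equally. The 74 probes and their signs were set by the mean of these same arrays. Agreement with the sign is therefore partly built in, and only its unevenness between arrays is described. Replicate 3 at 7 weeks had the sign of the change in 72 of 74 probes and replicate 2 at 11 weeks in 71 of 73. Replicate 4 at 5 weeks had it in 36 of 74, 18 of 26 on the VNN2 side and 18 of 48 on the SULT side, and replicate 3 at 11 weeks in 49 of 74, with 28 of 48 on the SULT side. Without replicate 4 at 5 weeks 194 probes passed, 53 on the VNN2 side and 141 on the SULT side, with 73 of the 74 among them. Without replicate 1 at 7 weeks 121 passed, with 72 of the 74.

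Clones of the same gene often differed. Of the 42 named genes 15 had more than 1 probe tested, with 19 other probes that did not pass. Of these 13 had the sign of the called probe, and 15 lay within 0.2 of 0. For the other 27 genes a single probe was tested. The names come from an array annotation that can be old, so a gene named here is what its clone was annotated as.

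In other processes few or no genes passed, beside 1.07% of all genes. Out of 28 ribosomal protein genes 0 passed (limma), 8 had an unadjusted p under 0.05, with a median of -0.055 and 9 positive, against 66.2% of all genes. The proteasome (21 genes, median 0.021), chaperones of the endoplasmic reticulum (25, median 0.034), other chaperones (22, median 0.020), glycolysis (14, median 0.026), gluconeogenesis and glycogen (10, median 0.020), cholesterol synthesis (15, median 0.021), haemostasis (10, median 0.067), complement (11, median 0.045), the clock (5, median 0.024) and glucocorticoid and angiotensin genes (8, median 0.018) also had 0 past the threshold (limma). In these lists 0 to 3 genes had an unadjusted p under 0.05. HSPA5, a chaperone of secretory proteins, had 0.056 (adjusted p = 0.906), with 0.60 at 7 weeks and -0.18 at 9 weeks. Its second probe had 0.074 (adjusted p = 0.938), with a wider course of 1.62 at 7 weeks and -0.63 at 9 weeks. In fatty acid oxidation 2 of 21 passed, FABP1 and HSD17B4, on opposite sides. Of 10 genes in the lipoprotein list only TTR passed, which is itself a carrier of thyroid hormone and retinol binding protein. The apolipoproteins APOA1 and APOB had -0.37 (adjusted p = 0.402) and -0.024 (adjusted p = 0.969). Of 22 cell cycle genes EZH2 passed, as the mean of its unlike probes (-0.56, adjusted p = 0.00558), and the list median was 0.020.

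Of 4 erythroid markers 0 passed (limma), 1 at an unadjusted p under 0.05. All were positive, beside 66.2% of all genes, the globin HBBA highest at 0.30 (adjusted p = 0.0567). Matrix and vessel markers (10 genes) lay between -0.033 and 0.13, bile duct markers (2) at 0.073 and 0.14, and markers of muscle, pancreas and gut (5) between -0.037 and 0.079, each with 0 past the threshold (limma) and 0 at an unadjusted p under 0.05. HINTW of the W chromosome, which only hens carry, had 0.056 (adjusted p = 0.799). Among all 3181 genes 34 passed (1.07%) as means of their probes, 14 on the VNN2 side (0.44%) and 20 on the SULT side (0.629%).

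**Figure D4:**
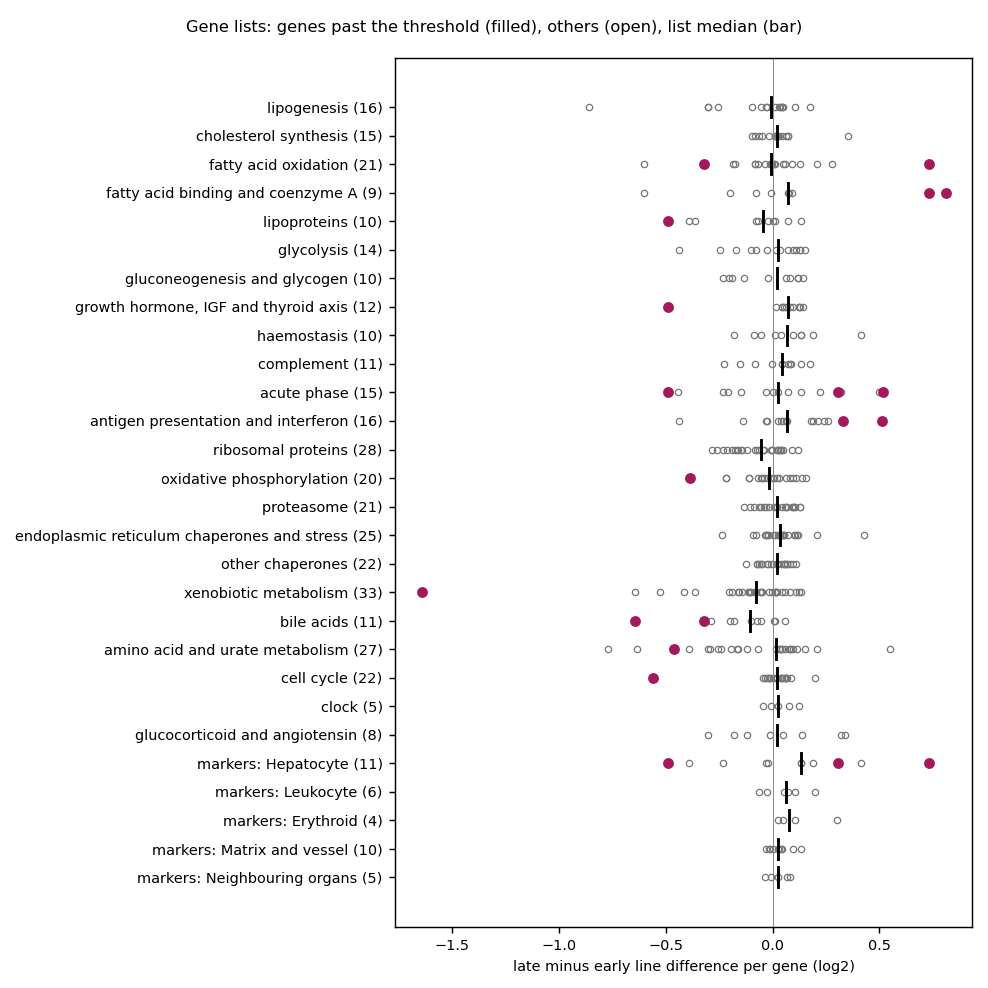
Each row is a gene list with the number of its genes measured, and each point a gene's change of the line difference (x axis, late minus early, log2). Filled points passed the threshold, open points did not, and the bar is the list median. The lists of bile duct and W chromosome markers, with 2 and 1 genes, are not drawn. Medians lie between -0.10 for bile acids and 0.13 for hepatocyte markers, and SULT at -1.64 is the farthest point.

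Genes whose 6 fitted differences ran most like those of the leading genes did not pass themselves. Nearest to VNN2 were PNRC1 (r = 0.983), AGT (0.981), XBP1 (0.979), SHISA5 (0.977) and SIAH1 (0.976), over 6 ages. Nearest to SULT were RAB14 (r = 0.983), PON1 (0.979), CUEDC2 (0.976), PRDX6 (0.976) and KMO (0.974). These correlations share the arrays and rest on 6 points, and the changes of the 10 genes lay between -0.26 and 0.32.

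**Figure D5:**
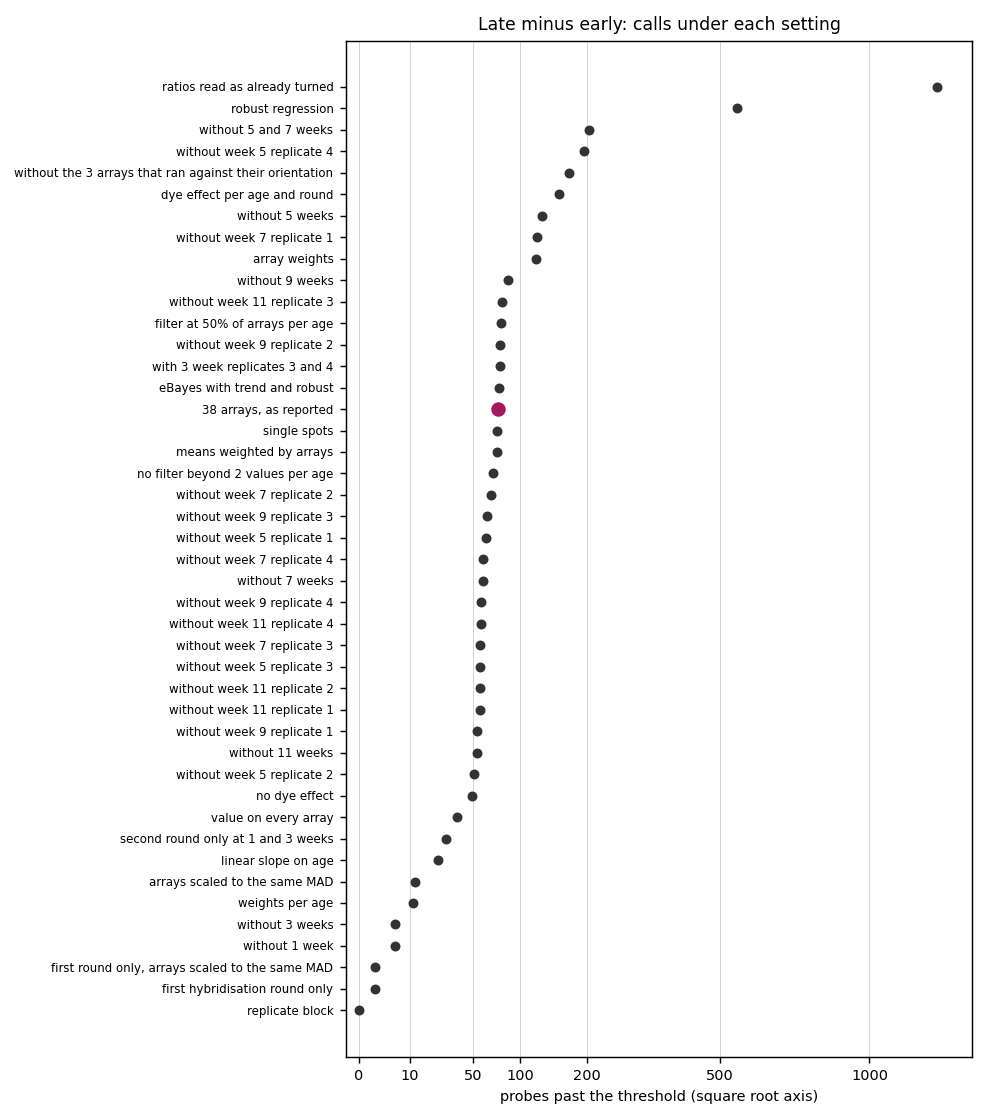
Number of probes past the threshold (x axis, square root scale) for late minus early under each setting (y axis), with the value reported here, 74, as the large point. Counts run from 0 with the replicate number as a block to 1281 when the ratios are read as already turned to HG and LG.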

How the data were processed

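For each spot and array the authors deposited a ratio between the dyes on a linear scale. Array medians of the authors' ratio ran from 0.966 to 1.015, which was read as normalization by array before deposit, and none was added. The method, scanner, background correction and numerator dye are not given in the sources used here. Spots with a value numbered 7291 to 13434 of 19200 per array, and the number of arrays limits the precision. RNA was extracted with a column kit and labelled indirectly as cDNA, per the labels' protocols.

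The log2 of the authors' ratio was taken, spots of 1 accession were averaged (18547 probes), and probes valued on 75% or more of the arrays at each age were tested (6432 probes, 3859 with a symbol). Symbols came from the platform annotation: 10455 of 10601 annotated spots had their gene ID in RefSeq's table, and 0 symbols differed. No coordinates or sequences were used.

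Line differences were fitted with limma 3.58.1 in R 4.3.3 (lmFit, eBayes), with a line effect per age entered as +1 or -1 by the dye HG carried, and a dye effect shared by all ages, over 38 arrays (median 31 residual degrees of freedom). The contrast was the mean at 5 to 11 weeks minus the mean at 1 and 3 weeks, with each age weighted alike. Further contrasts were each age, 7 weeks against the other late ages, chosen because earlier results showed most calls there, and an F test of equal effects. Tests were two-sided, with Benjamini-Hochberg adjustment per contrast and a threshold of 0.05. The script was tested on simulated data with the same spread at all ages, so that test does not cover the unequal spread found here. Genes in lists are means of their probes.

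Named genes were up to 15 per side by size among probes past the threshold with 1 symbol, list members past it, and looked-up genes. The other genes past the threshold, GSTA3, IFIH1 and the unnamed clones were chosen after their values were seen. Array values, with the probe's dye effect taken off, are given for the 6 largest per side. The members, the 30 lists, the tests and the alternatives were chosen with earlier results of these data known, and the lists are therefore described by counts and medians with no test. The second round reused 4 birds per line, so the spread between arrays is partly technical. Replicate numbers recur across ages, but birds differ by age. Deviations of same-numbered arrays correlated with r from -0.355 to 0.569 (median 0.177, 50 pairs), against a median of -0.0915 for different numbers (150 pairs). Since not every pair exceeded 0.1 and no label gives a shared batch, the numbers were not taken to pair the arrays. That rule does not show the arrays to be independent, as the median was higher for the same number. With the replicate number as a block 0 probes passed (limma). Alternatives changed the arrays, round, dye term, scaling, weights, filter, ages, orientation and block.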

Additional observations from a re-analysis of the deposited data

Results flagged for a closer look

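Among 179 groups of 4 arrays for 46 genes, 7 (3.91%) held an array far from the other 3 of its age, where chance marks about 1 in 20. CZH18ORF25 at 7 weeks had -2.14 on replicate 3, with the others between -1.29 and -1.24. CEBPB at 7 weeks had -0.853 on replicate 1, with the others between -1.24 and -1.19. SLC25A6 at 5 weeks had -0.768 on replicate 3, with the others between -0.146 and -0.0537. GBP1 at 5 weeks had 0.94 on replicate 2, with the others between 0.257 and 0.358. HIST1H101 at 7 weeks had 0.046 on replicate 2 (others 0.249 to 0.279), PRCP at 7 weeks -0.076 on replicate 1 (others 0.0627 to 0.0893), and DIO1 at 9 weeks 0.217 on replicate 4 (others 0.0373 to 0.0435). All values are log2 line differences of single arrays.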

How the results depend on the processing

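Late minus early, the 74 probes (and the 13 list genes) became 169 (24) without replicate 4 at 5 weeks and replicates 1 and 2 at 3 weeks. Those arrays had the most negative r with the others. Counts were 1 (0) in the first round only, also with scaled arrays, and 29 (5) with early arrays of the second round only. They were 49 (8) without a dye effect, 153 (25) with a dye effect per age and round and 12 (2) with arrays scaled to the same deviation. Weighting gave 120 (25) with array weights and 11 (2) with weights per age, and robust regression gave 549 (56). There were 37 (8) for probes valued on every array, 5 (0) without 1 week, 5 (1) without 3 weeks and 128 (21) without 5 weeks. A linear slope on age gave 24 (2). Ratios read as already turned gave 1281 (89), with 1 of the 74 among them. Leaving out 5 and 7 weeks gave 203 probes, of which 42 were among the 74. With the replicate block 0 probes and 1 list gene passed (limma, 331 probes at an unadjusted p under 0.05). Of 22 arrays with replicate numbers 1 to 4, 11 were most like their own number, a hint from the data that numbers share something, which no label states. Leaving out 1 late array gave 51 to 194 probes and 9 to 30 list genes, with 194 and 30 without replicate 4 at 5 weeks and 121 and 26 without replicate 1 at 7 weeks. The 99 probes of the F test became 240 without those 3 arrays, 1 in the first round, 266 with a dye effect per age and round, 26 scaled, 24 with weights per age and 3319 read as already turned, and 76 to 261 leaving out 1 array. The 44 probes of 7 weeks against other late ages became 0 in the first round (limma, 255 at an unadjusted p under 0.05), 177 with a dye effect per age and round, 1 scaled, 0 with weights per age (81 at an unadjusted p under 0.05) and 1226 read as already turned, with 27 to 151 leaving out 1 array, 27 without replicate 3, 82 without replicate 1 and 151 without replicate 2 at 7 weeks and 88 without replicate 3 at 5 weeks. For late minus early, settings without a mention stayed within 1.5 times the count. Among them were 77 probes at a 50% filter, 75 with robust eBayes and 76 with the 3 week pair. Without 7 weeks 59 passed (32 and 27 by side), with only 41 of the 74 among them. For 7 weeks against the other late ages, array weights gave 98 probes at an unadjusted p under 0.05 (limma). Robust regression gave 1349 there and the 3 week pair 496. The cause of these shifts was not tested.

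Read as already turned, signs turned for MED27 (-0.27), AKR1D1 (0.14), ATIC (0.14), HSD17B4 (0.20), APOA1 (0.34), LBFABP (0.15), SULT1C3 (0.077), NME4 (0.068), ATP5H (0.091), SLC25A6 (0.066), TTR (0.016), ACSM5 (0.036), ACLY (0.056), APOB (0.094), FGA (-0.086) and DIO1 (-0.050). No other setting turned a gene past the threshold. Among genes not past it, APOB had 0.012 with second round early arrays, 0.025 scaled, 0.077 without 3 weeks, 0.051 without 5 weeks, 0.041 without 7 weeks, 0.15 as a slope, 0.19 without 5 and 7 weeks and -0.11 to 0.040 leaving out 1 array. FGA had -0.13 in the first round, -0.17 also scaled, -0.18 without 7 weeks, -0.11 without 5 and 7 weeks and -0.032 with the block. HSPA5 had -0.014 scaled, -0.13 without 7 weeks, -0.10 as a slope, -0.21 without 5 and 7 weeks and -0.038 to 0.11 leaving out 1 array, lowest without replicate 3 at 7 weeks. GHR had -0.039 in the first round, -0.028 also scaled and -0.0094 with the block. ORM1 had -0.13 scaled and -0.074 without 5 and 7 weeks, FGB -0.16 without 7 weeks and -0.16 without 5 and 7 weeks, and ACLY 0.00094 without 3 weeks.

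Several calls near the threshold were marginal and were lost on leaving out any of several late arrays. SLC38A4 passed in 4, ACSM5 in 5, HSD17B4 in 6, LY6E in 8, CP in 11 and ATP5H in 12 of the 16 fits that leave out 1 late array, and PRCP in 4 of the 13 in which it was tested.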
